A study of Mus musculus with 2 samples.

Results

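The 9 genes described here, Shh, Ptch1, Smo, Gli1, Gli2, Gli3, Hhip, Boc and Gas1, belong to the Hedgehog signalling pathway. They were chosen by symbol from the 32285 genes of the deposited tables, and each symbol had 1 gene identifier. Their transcripts were followed in 2 single-cell libraries of mouse embryos at E13.5. Control embryos carried Isl1-Cre and R26R-eYFP, and mutant embryos carried Isl1-Cre, R26R-eYFP and the activating Pik3caH1047R allele. In both genotypes Cre made from Isl1 switched on the eYFP label, and in the mutant the same Cre switched on the Pik3ca allele. Label and allele were therefore limited to cells with a history of Isl1 expression, from several germ layers. Each library came from 3 pooled embryos, from which the body above the liver was dissociated and eYFP-positive cells were sorted. The tissue is labelled pharyngeal arch, but lung, heart, mesothelial, neural and liver markers defined some of the clusters, so the cells came from a wider region. The cluster with liver markers held 0 control and 47 mutant cells, so the libraries also differed in the tissue they held. With 1 library per genotype there was no replicate, so no test between genotypes was made.

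Hedgehog ligands such as Sonic hedgehog, encoded by Shh, are secreted mainly by epithelia and act on cells nearby. The ligand binds Patched1, which otherwise holds the transducer Smoothened in check, and the co-receptors Boc and Gas1 help it to bind. Active Smoothened, working at the primary cilium, shifts the Gli factors from repressors to activators of transcription. Ptch1, Gli1 and Hhip are themselves target genes of the pathway, so their transcripts are widely read as a sign of response, and Hhip binds and sequesters the ligand. In the embryonic head, neck and chest, Shh made by pharyngeal, oral and lung epithelium acts on the mesenchyme around it.

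Transcripts were counted by unique molecular identifiers (UMIs) with the 10x Genomics 5′ assay. After filtering, the control library kept 2783 cells (63153191 UMIs, median 20412 per cell) and the mutant library 3489 cells (69717583 UMIs, median 16839). Clusters were named from lists of marker genes and are called "-like" because the names are rebuilt. Branchial muscle-like, mesenchyme-like, epithelium-like and endothelial (EC)-like classes were found, beside neuron-like, cardiomyocyte-like and mesothelium-like ones, so the cells were not of 1 tissue type. All 13 epithelial and all 12 EC markers were raised in their classes, whereas the lung-led mesenchyme-like cluster had 3 of 13 mesenchyme markers raised and takes its place by its leading genes. Cells were also sorted by Xist and Y-linked transcripts, which put 95.5% of the control library but 33.6% of the mutant library in a female-like group, and 53.3% of the mutant library in a male-like one. The sex of the embryos thus differed between the libraries, and its part in any difference below was not tested. Values within 1 sex, where given, hold sex equal but not the embryos or the makeup of the cells. How many embryos gave the female-like mutant cells is not known. Of cell barcodes, 12 occurred in both filtered libraries. The 9 genes and their wider lists were left out of the genes used for clustering. Levels are UMIs per 1000000 UMIs of a class (CPM), each with a 95% counting interval. These intervals reflect counting error alone, without the variation among embryos or libraries. In such sums, fewer cells with a transcript and fewer transcripts per cell cannot be told apart.

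The sequences before 2 of the target genes are shown because both genes respond to the pathway and their levels differed between clusters and libraries in the results that follow. Of the 9 genes, 6 matched an entry in the RefSeq promoter table of GRCm38.p6, and the windows hold the 250 bases before the transcription start, 5′ to 3′ on the strand of the gene, with CG pairs in capitals. The Ptch1 window is chr13:63565736-63565985 and the Hhip window chr8:80058009-80058258, both on the minus strand and both outside the exons of the GENCODE annotation. The Ptch1 window lies within the GENCODE span of the gene, which has a further start upstream.
Ptch1: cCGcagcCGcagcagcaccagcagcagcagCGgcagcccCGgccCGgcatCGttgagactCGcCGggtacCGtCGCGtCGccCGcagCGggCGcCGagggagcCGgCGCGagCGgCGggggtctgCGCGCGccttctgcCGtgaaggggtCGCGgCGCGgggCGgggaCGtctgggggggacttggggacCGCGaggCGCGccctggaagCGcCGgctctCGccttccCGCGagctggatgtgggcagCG
Hhip: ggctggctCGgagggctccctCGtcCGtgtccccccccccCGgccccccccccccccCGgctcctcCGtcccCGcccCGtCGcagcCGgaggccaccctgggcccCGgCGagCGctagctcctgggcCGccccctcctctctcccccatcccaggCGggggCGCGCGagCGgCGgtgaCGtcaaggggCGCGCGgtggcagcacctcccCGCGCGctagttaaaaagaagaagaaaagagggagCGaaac
The Ptch1 window held 41 CG pairs and the Hhip window 28, and the 6 matched windows ranged from 10 to 41. Over the 250 bases before all 32851 starts in the table the median was 6 CG pairs and the 90th percentile 25. The letters GACCACCCA, the core of the sequence bound by Gli factors, were searched on both strands of each window and of the 50 bases after the start, and stood in 0 of the 6 matched entries, beside 83 of all 32851 entries (0.253%). That says only that these letters were not in these stretches.

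Shh, the ligand gene (chr5:28456815-28467256, minus strand, GRCm38), was found mainly in epithelium-like and neuron-like cells. In epithelium-like cells it was at 43.8 CPM in control (interval 37.7 to 50.7, 180 UMIs in 212 cells) against 39.8 CPM in mutant (34.7 to 45.4, 219 UMIs in 304 cells). The intervals overlapped, and mutant over control gave a log2 ratio of -0.14 (-0.43 to 0.15). The epithelium-like class gave 84.5% of all Shh UMIs of the control library and 70.4% of those of the mutant library, although it held 6.50% and 7.90% of all UMIs. Neuron-like cells gave most of the rest, 11.3% in control and 25.7% in mutant.

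Mesenchyme-like cells, which respond to the ligand rather than make it, held 4 Shh UMIs in each library, in 991 and 682 cells. Cells with at least 5000 UMIs were thinned to 5000, so that depth was equal. Shallower ones were left out, 61 of the control and 173 of the mutant library. After thinning, 13.4% of epithelium-like control cells (27 of 201, interval 9.04 to 18.9%) and 10.2% of mutant cells (29 of 285, 6.92 to 14.3%) had a Shh UMI. At full depth these shares were 21.7% and 18.1%. EC-like cells, which should lack the ligand, gave 0 of 144 thinned control cells and 0 of 662 thinned mutant cells, which allows shares of up to 2.08% and 0.453%. Median depth was 15728 and 15884 UMIs per cell in the epithelium-like class and 20203 and 17038 in the EC-like class. Shh was therefore found in a larger share of epithelium-like than of EC-like cells, though in a minority of the epithelial cells at this depth. The part of free RNA in these counts was not tested.

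The epithelium-like class was a mixture, and it was divided into 8 sub-clusters after its values had been seen. The sub-cluster in which all 7 lung endoderm markers were raised, led by the surfactant gene Sftpc, had Shh at 127 CPM in control (interval 106 to 151, 40 cells) and 100 CPM in mutant (67.7 to 143, 15 cells). The intervals overlapped, with a log2 ratio of -0.34 (-0.96 to 0.24). In the sub-cluster led by Pth and Fndc1, Shh was at 55.4 CPM in control (43 cells) and at 121 CPM in mutant (83 cells), with a log2 ratio of 1.13 (0.63 to 1.64). Pth, the parathyroid hormone gene, was at 249 CPM there in control and 35.2 CPM in mutant, and Pax1, a pharyngeal pouch gene, at 8.82 and 111 CPM, so the cells of this sub-cluster differed in more than Shh. The part of cell makeup in its Shh difference was not tested.

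The other sub-clusters held little Shh, with 1 exception. No Shh UMI was found in either library in the sub-cluster led by the pituitary genes Cga and Lhx3 (35 and 32 cells), in that led by the otic gene Oc90 (33 and 15 cells) or in that led by Gstm1 and Aldh1a3 (10 and 17 cells). The stratified sub-cluster led by Cxcl14 and Wnt9b held 2 Shh UMIs in each library. The sub-cluster led by Gabrp and Krt6a held 0 and 1. The exception was a sub-cluster led, over both libraries together, by cardiac genes such as Myl2 and Nppa. Shh was there at 3.42 CPM in control (2 UMIs, 20 cells) against 33.3 CPM in mutant (35 UMIs, 43 cells). The cardiac gene Myl7 was at 3.42 CPM (2 UMIs) in its control cells and 111 CPM (117 UMIs) in its mutant cells. Oc90 was at 269 CPM in its control cells and at 0 in its mutant cells, while Pax1 was at 0 and 56.1 CPM. Its control and mutant cells thus differed in more than Shh, and the part of this in the Shh values was not tested.

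The makeup of the epithelium-like class differed between the libraries. The summed level of the 7 lung endoderm markers was 700 CPM in control and 160.0 CPM in mutant, with 0 of 7 higher in mutant, and that of 9 stratified epithelium markers was 1587 and 2669 CPM, higher for 6 of 9. Markers of mesenchyme in the same cells summed to 582 and 288 CPM, with 0 of 13 higher in mutant. With sub-clusters of at least 20 cells in each library given the same weights, the log2 ratio of Shh was 1.19 instead of -0.14, and this weighting leaves out the lung-led sub-cluster. In female-like cells alone Shh was at 44.5 CPM in control and 29.7 CPM in mutant (log2 ratio -0.58, -1.03 to -0.15). Within the mutant library, the level was 48.3 CPM in male-like and 29.7 CPM in female-like epithelial cells. The direction of the Shh difference in epithelium thus changed with the weights given to the cells.

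**Figure D1:**
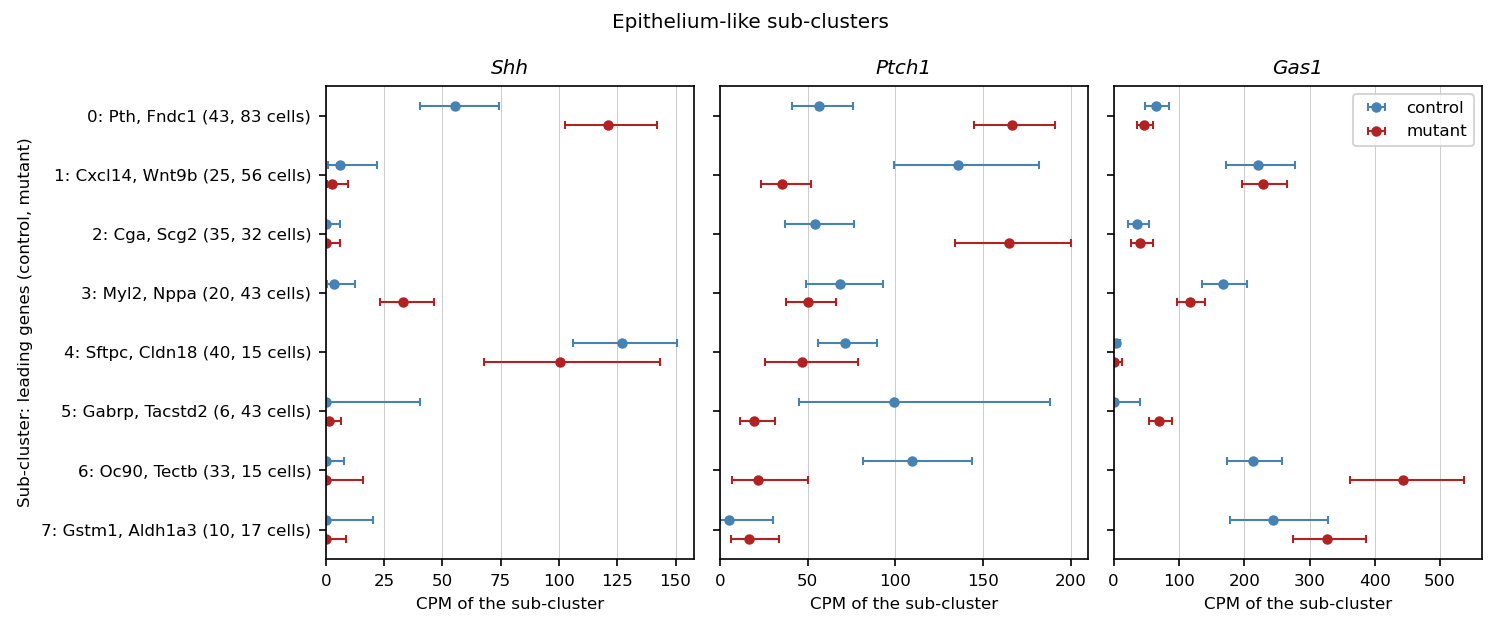
Levels of Shh, Ptch1 and Gas1 in the 8 epithelium-like sub-clusters, in UMIs per 1000000 UMIs of the sub-cluster (CPM), for the control (blue) and mutant (red) library, with 95% Poisson intervals and the cell numbers of both libraries beside the leading genes. Shh stood at 127 and 100 CPM in sub-cluster 4, led by Sftpc, where Gas1 was at 3.85 and 0 CPM, and the libraries differed in opposite directions for Ptch1 in sub-clusters 0 and 2 against 1 and 6.

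Shh and the co-receptor gene Gas1 were seldom detected in the same epithelial cells. Gas1 had a UMI in 0 of 27 thinned control cells with Shh and in 3 of 29 thinned mutant cells with Shh. Of the cells without Shh, 27.0% in control and 29.3% in mutant had a Gas1 UMI. The Sftpc-led sub-cluster, the highest in Shh in control, had Gas1 at 3.85 CPM in control (4 UMIs) against 0 in mutant. Its Gli2 was at 0 and 3.34 CPM (1 UMI). The Oc90-led sub-cluster, without Shh, had Gas1 at 213 and 443 CPM. Other sub-clusters were less clear. The Pth-led one, the highest in Shh in mutant, with 151 of the 219 mutant Shh UMIs, had Gas1 at 64.2 and 47.3 CPM. The one led by cardiac genes had Gas1 at 168 and 117 CPM, and the Cga-led one, without Shh, at 36.2 and 40.3 CPM. The levels of the 2 genes were thus not opposite in every sub-cluster. Ptch1 differed from Gas1 here, with a UMI in 37.0% of the control cells with Shh (10 of 27) and 48.3% of the mutant ones (14 of 29), against 22.4% and 23.0% of the cells without it.

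The genes whose level was most like that of Shh across cell types were named by correlation. Over 20 clusters in 2 libraries (40 points, which share libraries and depth), the 8 genes with the highest Pearson r with Shh among 13038 genes were Ripk4, Ap1m2, Otx1, Rab25, Kdf1, Esrp1, Foxa2 and Gm13648, from 0.92 to 0.88. Esrp1, a splicing factor of epithelia, was among the epithelial markers, and Foxa2, an endodermal transcription factor, was among the lung endoderm and foregut markers.

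Ptch1, the receptor gene (chr13:63508328-63573598, minus strand), was highest by class in mesenchyme-like cells. It was at 107 CPM in control (interval 103 to 112, 2121 UMIs) against 98.1 CPM in mutant (92.4 to 104, 1118 UMIs), with a log2 ratio of -0.13 (-0.23 to -0.02). Epithelium-like cells followed at 72.8 CPM in control and 78.6 CPM in mutant, with overlapping intervals. The next levels were 59.7 and 38.7 CPM in neuron-like cells, 41.0 and 40.4 CPM in mesothelium-like cells and 37.3 and 41.6 CPM in EC-like cells. Branchial muscle-like cells had 16.2 and 31.0 CPM and cardiomyocyte-like cells 23.1 and 6.15 CPM. Of all Ptch1 UMIs, mesenchyme-like cells gave 62.9% in control and 34.6% in mutant, against 31.4% and 16.3% of all UMIs. Neighbours in this order whose intervals overlapped were, in control, epithelium and neuron, mesothelium and EC, EC and cardiomyocyte, and cardiomyocyte and muscle, and in mutant EC, mesothelium and neuron.

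**Figure D2:**
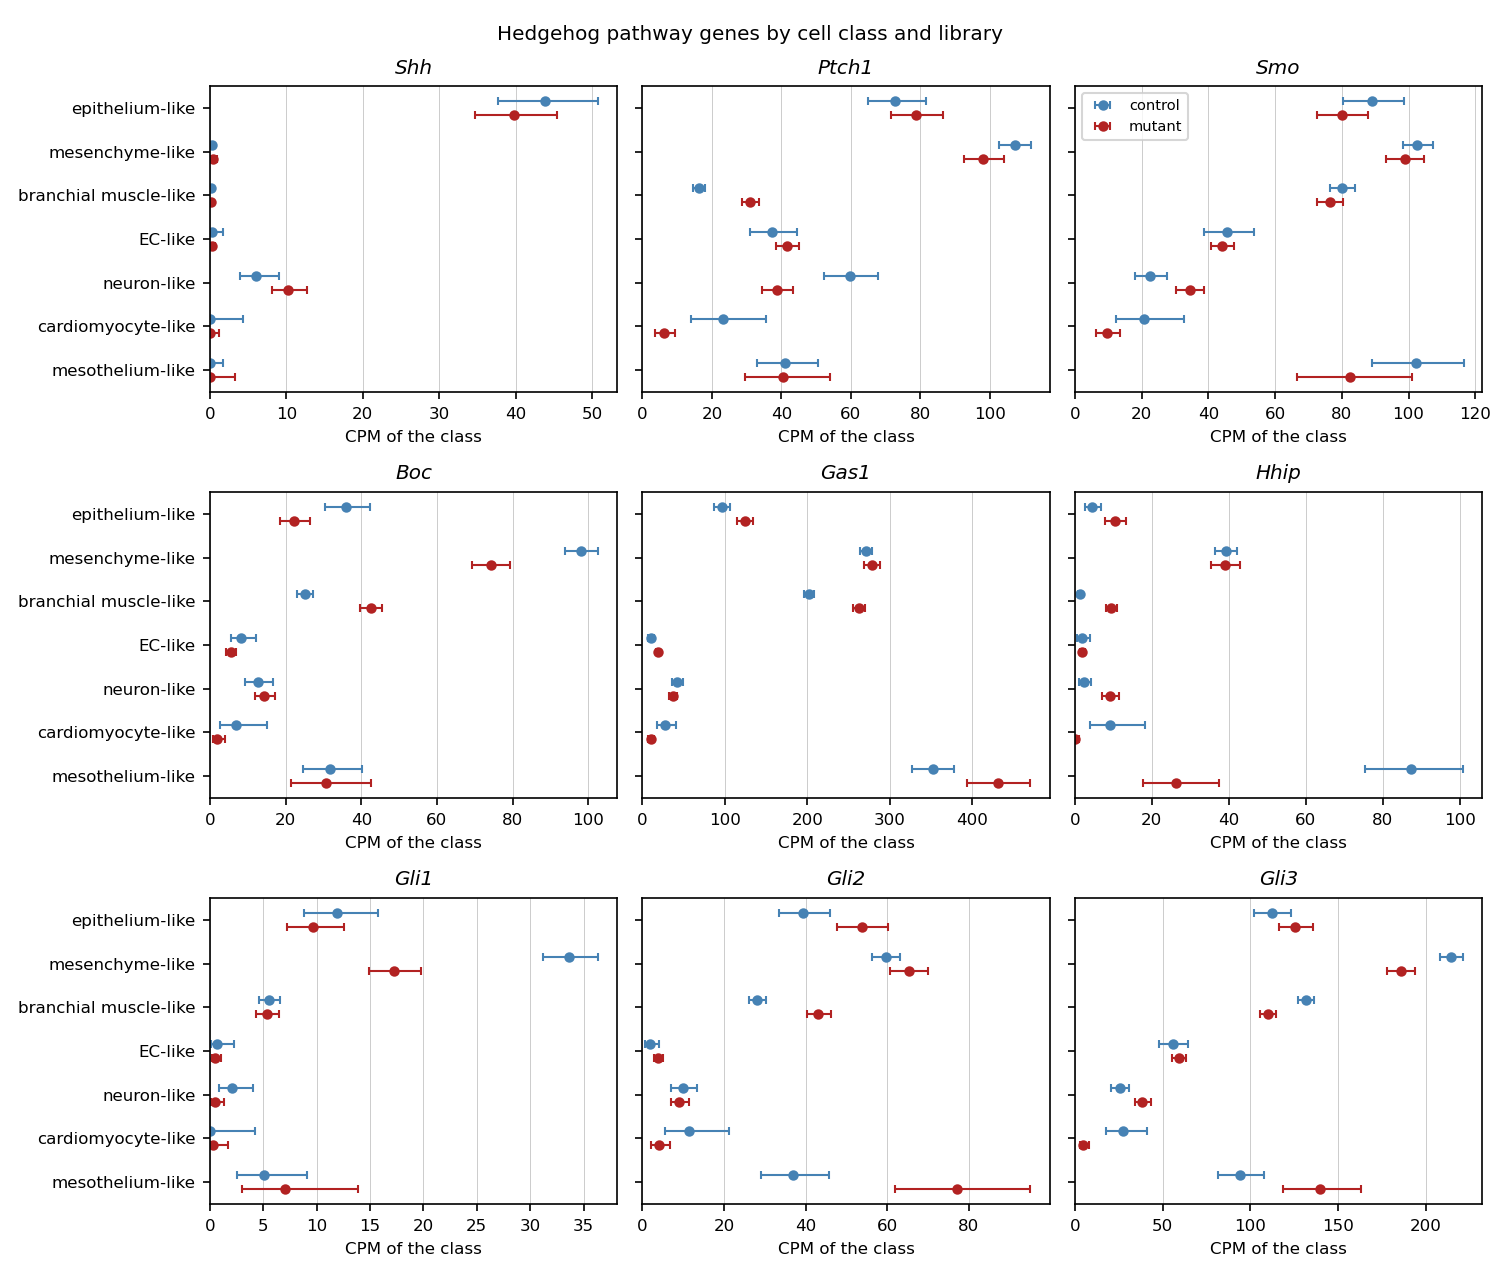
Levels of the 9 Hedgehog pathway genes in 7 cell classes, those holding 50 or more cells per library, in UMIs per 1000000 UMIs of the class (CPM), for control (blue) and mutant (red), with 95% Poisson intervals. Shh stood apart in epithelium-like cells at 43.8 and 39.8 CPM, and Gli1 and Ptch1 were highest in mesenchyme-like cells, with Gli1 at 33.7 and 17.2 CPM.

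The near-equal Ptch1 sums of the mesenchyme-like class came from clusters that differed in opposite directions. In the cluster led by Twist1, Prrx1 and cartilage genes, Ptch1 was at 52.6 CPM in control (508 UMIs, 525 cells) against 91.1 CPM in mutant (707 UMIs, 504 cells), with a log2 ratio of 0.79 (0.63 to 0.96). In the cluster with all 7 lung mesenchyme markers raised, led by Adh1 and Wnt2, it was at 128 CPM in control (1147 UMIs, 370 cells) against 77.0 CPM in mutant (232 UMIs, 136 cells), with a log2 ratio of -0.74 (-0.95 to -0.53). In the cluster led by the smooth muscle genes Myh11 and Actg2 it was at 384 and 289 CPM (log2 ratio -0.41, -0.67 to -0.16). That cluster had 6 of 7 smooth muscle markers raised and also 6 of 7 lung mesenchyme markers. The lung-led cluster held a larger part of the control cells, and the 7 lung mesenchyme markers summed to 715 CPM in the control class and 232 CPM in the mutant class. Without the lung-led cells the class ratio of Ptch1 was 0.24 (0.11 to 0.37), the opposite direction.

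At a finer division into 5 mesenchyme-like clusters, Ptch1 was higher in mutant in 1 and lower in 4, with the interval below 0 in 1 of those. The one in which it was higher was led by Twist1, Angptl1 and Lum, a fibroblast gene, at 37.2 CPM in control (399 cells) and 72.0 CPM in mutant (370 cells). The cartilage cluster, led by Col9a3 and Col2a1, had the same level in both libraries within counting error, 205 and 202 CPM. That cluster was shallow, with medians of 9597 and 8307 UMIs per cell. Of the 5 fine clusters, a second lung-led one held 84 control but only 12 mutant cells, so its mutant values rest on few cells.

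Smo, the transducer (chr6:29735503-29761365, plus strand), differed little between the libraries in mesenchyme and muscle. It was at 103 and 98.8 CPM in mesenchyme-like cells (log2 ratio -0.05, interval -0.16 to 0.05). In branchial muscle-like cells it was at 80.2 and 76.3 CPM (-0.07, -0.17 to 0.03). Epithelium-like cells had 89.1 and 79.9 CPM and EC-like cells 45.6 and 44.2 CPM, both with overlapping intervals. Unlike Ptch1, Smo was spread over classes, and mesenchyme-like cells exceeded all other cells by 1.52-fold in control and 1.85-fold in mutant, beside 3.72-fold and 2.71-fold for Ptch1.

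Boc, which encodes a cell-surface co-receptor (chr16:44485049-44558897, minus strand), was lower in mutant in epithelium and higher in muscle. In epithelium-like cells it was at 36.0 CPM in control (30.5 to 42.3) and 22.2 CPM in mutant (18.4 to 26.5), with a log2 ratio of -0.70 (-1.06 to -0.35). In mesenchyme-like cells it was at 98.1 and 74.2 CPM (log2 ratio -0.40, -0.52 to -0.28), which is less than 1.5-fold. It was lower in 5 of 5 fine mesenchyme-like clusters, with the interval below 0 in 4, and from 84.0 to 45.0 CPM in the larger lung-led one. Thinned mesenchyme-like cells had a Boc UMI in 37.9% of control cells (34.8 to 41.0%) against 28.1% of mutant cells (24.6 to 31.7%), and 71.4% and 54.3% at full depth, with 6.25% and 2.42% of thinned EC-like cells beside it. Among female-like cells Boc was at 37.2 and 18.6 CPM in epithelium and at 99.2 and 77.3 CPM in mesenchyme, the same directions.

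Gas1, a membrane-anchored co-receptor (chr13:60174405-60177365, minus strand), was highest in mesothelium-like cells at 352 and 431 CPM. Mesenchyme-like cells had 271 and 278 CPM, with overlapping intervals and a log2 ratio of 0.04 (-0.03 to 0.10). Their clusters differed in opposite directions, as for Ptch1 but with the signs exchanged. In the cluster led by Twist1 and cartilage genes Gas1 was at 461 and 342 CPM (log2 ratio -0.43, -0.50 to -0.36). In the lung-led cluster it was at 94.1 and 139 CPM (0.56, 0.39 to 0.73), and in the smooth muscle-led one at 60.1 and 152 CPM (1.34, 0.88 to 1.80). EC-like cells had a low level, 10.2 CPM in control (33 UMIs) against 18.5 CPM in mutant (256 UMIs), with a log2 ratio of 0.86 (0.34 to 1.43). Among female-like EC-like cells the levels were 11 and 13.7 CPM (0.31, -0.31 to 0.96), short of 1.5-fold. Epithelium-like cells had Gas1 at 95.9 and 124 CPM (0.37, 0.19 to 0.56). Female-like epithelial cells had 93.1 and 171 CPM (0.88, 0.66 to 1.09), beyond 1.5-fold, and male-like mutant ones 110 CPM.

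Gli1, a transcriptional activator whose own gene is a target of the pathway (chr10:127329882-127341974, minus strand), was lower in mutant mesenchyme. It was at 33.7 CPM in control (31.2 to 36.3, 667 UMIs) against 17.2 CPM in mutant (14.9 to 19.8, 196 UMIs), with a log2 ratio of -0.97 (-1.21 to -0.74). The intervals did not overlap. EC-like cells, which served as the low reference, had 0.617 CPM (2 UMIs) and 0.506 CPM (7 UMIs). The share of thinned mesenchyme-like cells with a Gli1 UMI was 14.9% in control (144 of 969, 12.7 to 17.3%) and 9.09% in mutant (58 of 638, 6.98 to 11.6%), beside 0 of 144 and 3 of 662 EC-like cells, and at full depth it was 38.1% and 19.8%.

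The lower Gli1 level was found in each mesenchyme-like cluster, to a different degree. The lung-led cluster had 40.0 CPM in control and 13.3 CPM in mutant (log2 ratio -1.59, -2.10 to -1.12). The smooth muscle-led cluster had 75.7 and 37.1 CPM (-1.03, -1.76 to -0.36). The cluster led by Twist1 and cartilage genes had 22.5 and 17.1 CPM (-0.39, -0.71 to -0.07). All 5 fine clusters were lower in mutant, with the interval below 0 in 2. In the Twist1-led fine cluster in which Ptch1 was higher in mutant, Gli1 was at 20.5 and 12.8 CPM, so the 2 target genes differed there in opposite directions.

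Marker lists of this class also differed between the libraries, not all in the direction of Gli1. The 13 mesenchyme markers summed to 7861 CPM in control and 4006 CPM in mutant mesenchyme-like cells, with 3 of 13 higher in mutant, and the 5 fibroblast markers to 928 and 252 CPM, with 0 of 5 higher. The 7 smooth muscle markers summed to 651 and 1531 CPM, with 6 of 7 higher, and the part of these shifts in the Gli1 value was not tested. Without lung-led cells the log2 ratio was -0.61 (-0.90 to -0.33), and with the same weights for each fine cluster it was -0.64. In female-like cells Gli1 was at 33.9 CPM in control and 13 CPM in mutant (-1.38, -1.88 to -0.92). The makeup of these cells differed too. The Twist1-led cluster held 516 of 968 in control and 163 of 197 in mutant, and the lung-led one 357 and 29. Within the Twist1-led cluster female-like Gli1 was at 22.3 and 14.1 CPM (-0.66, -1.23 to -0.13), and in the lung-led one at 40.6 and 6.92 CPM (4 mutant UMIs). The part of makeup in the female-like ratio was not tested. Within the mutant library, male-like mesenchyme-like cells had 19.4 CPM and female-like ones 13 CPM, both below the control level.

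Cells with a Ptch1 UMI more often had a Gli1 UMI, in both libraries. Among thinned mesenchyme-like cells with Ptch1, 26% in control (74 of 285) and 15.4% in mutant (31 of 201) had Gli1. Among those without Ptch1 the shares were 10.2% and 6.18%. The corresponding shares for Hhip were 18.2% and 17.9% of cells with Ptch1, and 5.56% and 8.01% of cells without it. Smo showed no such gap, with 37.9% and 35.8% of cells with Ptch1 and 40.1% and 39.4% of cells without. These are counts of cells within a library, and cells are not replicates. They pool clusters with different levels. Control Ptch1 was at 52.6, 128 and 384 CPM in the Twist1-led, lung-led and smooth muscle-led clusters. Gli1 there was at 22.5, 40.0 and 75.7 CPM, Hhip at 15.7, 24.6 and 333 CPM, and Smo at 106, 99.6 and 99.6 CPM. The part of these levels in the gaps was not tested.

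The 8 genes with the highest r with Gli1 over the same 40 points were Tmem132c, Scara3, Abi3bp, Egfr, Mansc4, Emilin3, Dnmt3a and Mccc2, from 0.83 to 0.79. Emilin3 and Abi3bp encode extracellular matrix proteins and Egfr the epidermal growth factor receptor. Over 20 clusters, the log2 levels of the control and mutant libraries were correlated with r of 0.89 for Gli1 and for Shh, 0.84 for Ptch1 and 0.73 for Hhip, the lowest of the 9. The pattern across cell types was thus shared by the libraries, as a description over clusters that were built from both.

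Gli2, the main activator early in the response (chr1:118834132-119053619, minus strand), did not pass 1.5-fold in epithelium or mesenchyme. It was at 59.6 and 65.3 CPM in mesenchyme-like cells (log2 ratio 0.13, -0.00 to 0.26) and at 39.4 and 53.8 CPM in epithelium-like cells (0.45, 0.17 to 0.73). Gli3, which acts mainly as a repressor (chr13:15463235-15730026, plus strand), was at 214 and 186 CPM in mesenchyme-like cells (-0.21, -0.28 to -0.13) and at 112 and 126 CPM in epithelium-like cells (0.16, -0.01 to 0.34). Its fine mesenchyme-like clusters were lower in mutant in 4 of 5, with the interval below 0 in 3. In mesothelium-like cells both genes were at a higher level in mutant, Gli2 at 36.8 and 77.2 CPM (1.07, 0.62 to 1.52) and Gli3 at 93.9 and 139 CPM (0.57, 0.26 to 0.88). Both genes span more than 100 kb, and the 1779 genes of that span tested in mesothelium-like cells had a median log2 ratio of 0.55, beside 0.05 over all genes tested. The nuclear RNA Malat1 moved the same way there, at 3117 and 4845 CPM, with medians of 28114 and 14430 UMIs per cell. The part of this in the Gli2 and Gli3 values was not tested.

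Hhip, the gene of the ligand-binding inhibitor (chr8:79965851-80058006, minus strand), was concentrated in smooth muscle-led mesenchyme. In the mesenchyme-like class it was at 39.2 CPM in control (776 UMIs) against 39.1 CPM in mutant (445 UMIs), with a log2 ratio of -0.00 (-0.18 to 0.17). The smooth muscle-led cluster had 333 CPM in control and 455 CPM in mutant (0.45, 0.23 to 0.68), the lung-led cluster 24.6 and 12.6 CPM (-0.97, -1.50 to -0.46) and the cluster led by Twist1 15.7 and 16.1 CPM. The smooth muscle-led cluster held 404 of the 776 control UMIs and 282 of the 445 mutant UMIs from 96 and 42 cells. Without smooth muscle-led cells the class ratio was -0.40 (-0.68 to -0.13). In the mutant library, male-like mesenchyme-like cells had 48.3 CPM and female-like ones 19.6 CPM, against 39.3 CPM in female-like control cells. The Twist1-led cluster held 516 of the 968 female-like control cells and 163 of the 197 female-like mutant cells. Its female-like cells had Hhip at 16.0 and 13.7 CPM (-0.22, -0.81 to 0.33). The part of makeup in the female-like difference was not tested.

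In epithelium-like cells Hhip was at 4.38 CPM in control (18 UMIs) against 10.4 CPM in mutant (57 UMIs), with a log2 ratio of 1.24 (0.45 to 2.09). Female-like cells alone had 4.28 CPM (17 UMIs) and 4.03 CPM (8 UMIs), with a log2 ratio of -0.086 (-1.51 to 1.20). Mesothelium-like cells, the other place with a high level, had 87.4 CPM in control (190 UMIs) against 26.3 CPM in mutant (30 UMIs), with a log2 ratio of -1.73 (-2.34 to -1.17). Only 18.6% of the control and 5.97% of the mutant mesothelium-like cells had any Hhip UMI at full depth, so few cells carried these sums.

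**Figure D3:**
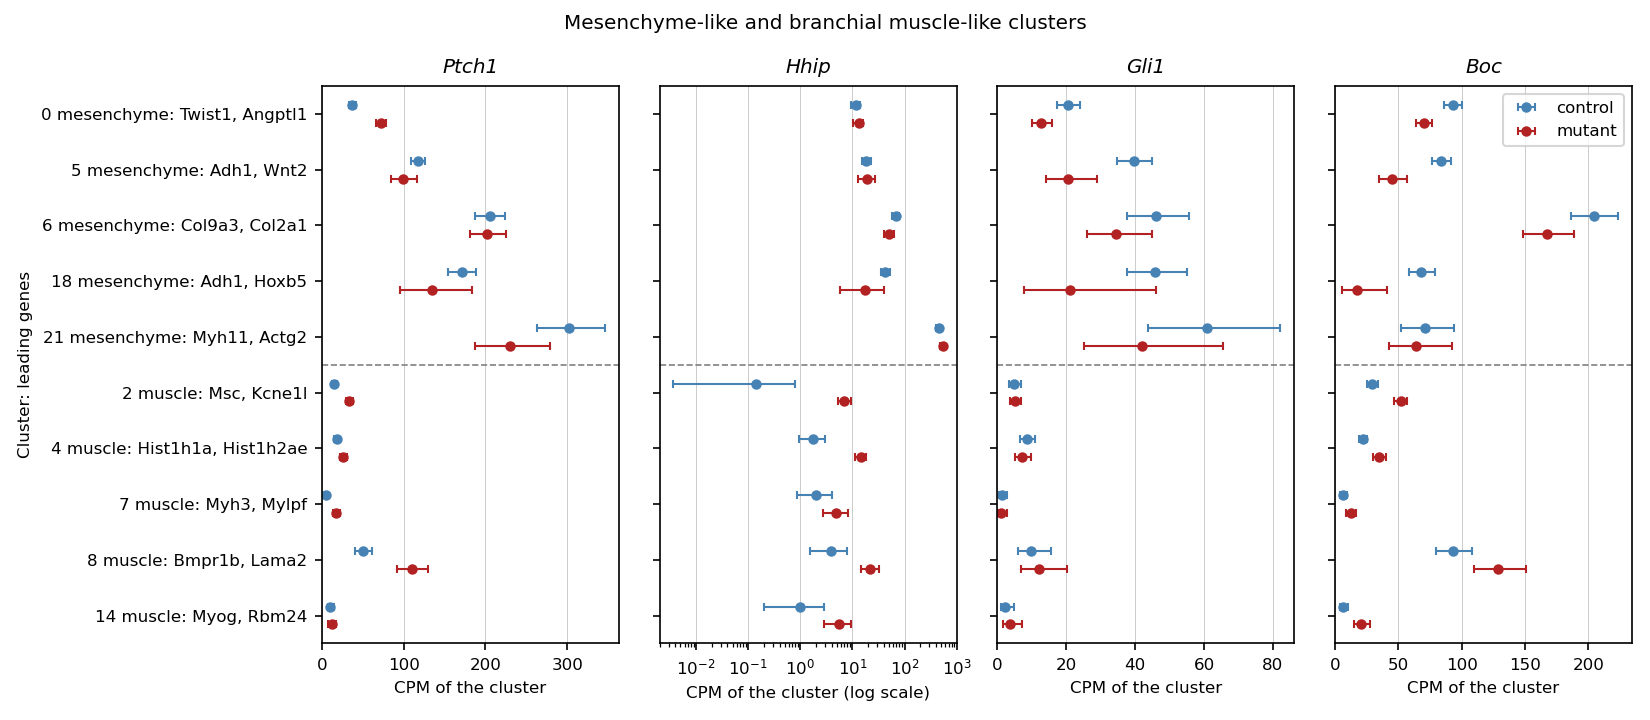
Levels of Ptch1, Hhip, Gli1 and Boc in the 5 mesenchyme-like clusters (above the dashed line) and 5 branchial muscle-like clusters (below it), in UMIs per 1000000 UMIs of the cluster (CPM, on a log axis for Hhip), for control (blue) and mutant (red), with 95% Poisson intervals. Gli1 and Boc were lower in mutant in 5 of 5 mesenchyme-like clusters, 1 of which held 84 control but only 12 mutant cells. Ptch1 and Boc were higher in mutant in 5 of 5 branchial muscle-like clusters, and Hhip in the 4 with at least 20 UMIs.

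Branchial muscle-like cells, the muscle lineage of the pharyngeal arches, had higher Ptch1 and Hhip in mutant. Ptch1 was at 16.2 CPM in control (14.6 to 17.9, 379 UMIs in 889 cells) against 31.0 CPM in mutant (28.6 to 33.6, 603 UMIs in 840 cells), with a log2 ratio of 0.94 (0.75 to 1.13). Hhip was at 1.37 CPM in control (32 UMIs) against 9.47 CPM in mutant (184 UMIs), with a log2 ratio of 2.79 (2.24 to 3.38), or 6.92-fold. Gli1, the third target gene, was at 5.51 and 5.30 CPM (-0.06, -0.44 to 0.33). Of the 3 target genes, 2 were higher in mutant and the intervals of Gli1 overlapped.

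Boc and Gli2 also passed 1.5-fold in mutant muscle, and Gas1 did not. Boc was at 25.1 and 42.5 CPM (log2 ratio 0.76, 0.60 to 0.91) and Gli2 at 28.2 and 43.2 CPM (0.62, 0.47 to 0.77). Gas1 was at 202 and 262 CPM (0.37, 0.32 to 0.43), and Gli3 differed the other way, at 132 and 110 CPM (-0.26, -0.34 to -0.18). In 5 of 5 fine muscle clusters Ptch1, Gli2, Boc and Gas1 were higher in mutant, with the interval above 0 in 5 for Gli2, Boc and Gas1 and in 4 for Ptch1. Hhip was higher in the 4 clusters with at least 20 UMIs, with the interval above 0 in 3.

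The clusters ran from precursors to differentiating fibres. In the largest, led by the precursor genes Msc and Myf5, Hhip had 1 UMI in 236 control cells and 53 UMIs in 335 mutant cells, and Ptch1 was at 14.8 and 33.1 CPM. In the cluster led by the myosin genes Myh3 and Mylpf, Ptch1 was at 4.55 and 17.2 CPM and Hhip at 2.02 and 4.88 CPM, with overlapping Hhip intervals. The cluster led by Bmpr1b and Lama2 had the highest Ptch1 of the 5, 50 and 110.0 CPM, and was shallow, with medians of 10155 and 8753 UMIs per cell. Ptch1 was thus higher in mutant in precursor-led and fibre-led clusters.

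The muscle values were also taken within sex and beside markers of other cells. In female-like cells Hhip was at 1.39 and 10.1 CPM (log2 ratio 2.87), Ptch1 at 16.1 and 24.2 CPM (0.58), Boc at 25.4 and 36.3 CPM (0.52) and Gli2 at 28.5 and 41.2 CPM (0.53). The last 3 fell short of 1.5-fold there. Gli1 was lower in mutant in these cells, at 5.43 and 3.34 CPM (-0.70, -1.40 to -0.06). Within the mutant library Hhip was at 9.13 CPM in male-like and 10.1 CPM in female-like muscle cells, whereas Ptch1 was at 34.8 and 24.2 CPM. The 13 mesenchyme markers summed to 652 CPM in control and 369 CPM in mutant muscle-like cells, with 5 of 13 higher in mutant. Other mesenchymal lists were higher in mutant muscle-like cells, with cartilage markers at 25.4 and 94.2 CPM (4 of 7 higher), lung mesenchyme at 44.2 and 71.5 CPM (3 of 7), tendon at 30.7 and 47.3 CPM (2 of 4), osteoblast at 5.26 and 9.73 CPM (3 of 4) and smooth muscle at 1173 and 1487 CPM (4 of 7). The 12 EC markers summed to 26.6 and 57.5 CPM, with 11 of 12 higher, and the part of these lists in the muscle values was not tested. After thinning, 0.8% of control (7 of 875) and 4.53% of mutant cells (36 of 795) had a Hhip UMI, and 7.66% and 14.0% had a Ptch1 UMI, beside 0.694% and 0.906% of EC-like cells for Hhip, whose median depth was 20203 and 17038 UMIs against 26389 and 22314 in muscle. At full depth the muscle shares were 2.36% and 12.3% for Hhip and 25.1% and 38.6% for Ptch1. The control share of Hhip was thus at the level found in EC-like cells.

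The 9 genes were counted against all genes by the same rule. A gene was tested if it had at least 20 UMIs over both libraries, and passed if its ratio was beyond 1.5-fold with a counting interval that left out 1, which is not a test between genotypes. In mesenchyme-like cells Gli1 passed as lower and 0 genes as higher, while 7 did not pass and Shh had too few UMIs, beside 8.28% of the 16048 genes tested that were lower and 11.3% that were higher. In epithelium-like cells Hhip was higher and Boc lower and 7 did not pass, beside 8.34% of 13721 genes higher and 9.52% lower. In branchial muscle-like cells Ptch1, Gli2, Hhip and Boc were higher, 0 were lower, 4 did not pass and Shh had too few UMIs, beside 14.1% of 15676 genes higher and 7.94% lower. In EC-like cells Gas1 was higher and 0 were lower, 6 did not pass and Shh and Gli1 had too few UMIs, beside 9.67% of 14162 genes higher and 11.6% lower. In neuron-like cells Shh, Smo, Gli3 and Hhip were higher and Ptch1 lower, 3 did not pass and Gli1 had too few UMIs, beside 5.59% of 14249 genes higher and 15.2% lower. In cardiomyocyte-like cells 5 genes could be tested and all 5, Ptch1, Smo, Gli2, Gli3 and Gas1, were lower, beside 12.8% of 9774 genes lower and 6.8% higher. In mesothelium-like cells Gli2 was higher and Hhip lower, 5 did not pass and Shh and Gli1 had too few UMIs, beside 18.3% of 10952 genes higher and 9.93% lower.

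Read against these shares, the 9 genes exceeded the background in muscle (4 of 8 tested were higher), in neuron-like cells (4 of 8 higher) and in cardiomyocyte-like cells (5 of 5 lower), and 1 of 8 in mesenchyme was near it. Among female-like cells, muscle had Hhip as higher and Gli1 as lower and the other 3 calls were lost, the EC-like call of Gas1 was lost, and the 5 neuron-like calls held. In female-like epithelium Boc stayed lower, the Hhip call was lost and Gas1 passed as higher. In female-like mesenchyme Gli1 stayed lower and Hhip also passed as lower (log2 ratio -1.01, -1.41 to -0.63). The share of all genes passing among female-like cells is not given here, so these calls have no background beside them. The cardiomyocyte-like count rests on control UMIs from few cells, with Ptch1 in 1, Gli3 in 3 and Gli2 in 5 of 54. Gli2 and Gli3 also span more than 100 kb. Of the 1439 genes of that span tested in cardiomyocyte-like cells 361 were lower, with a median log2 ratio of -0.32. The part of gene span in this count was not tested. Over the tested ones of the 9 genes, the median log2 ratio was 0.50 in muscle beside 0.02 over all genes tested. It was 0.39 in neuron-like cells beside -0.08, and -1.53 in cardiomyocyte-like cells beside -0.05. In mesenchyme-like cells it was -0.09 beside 0.01.

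**Figure D4:**
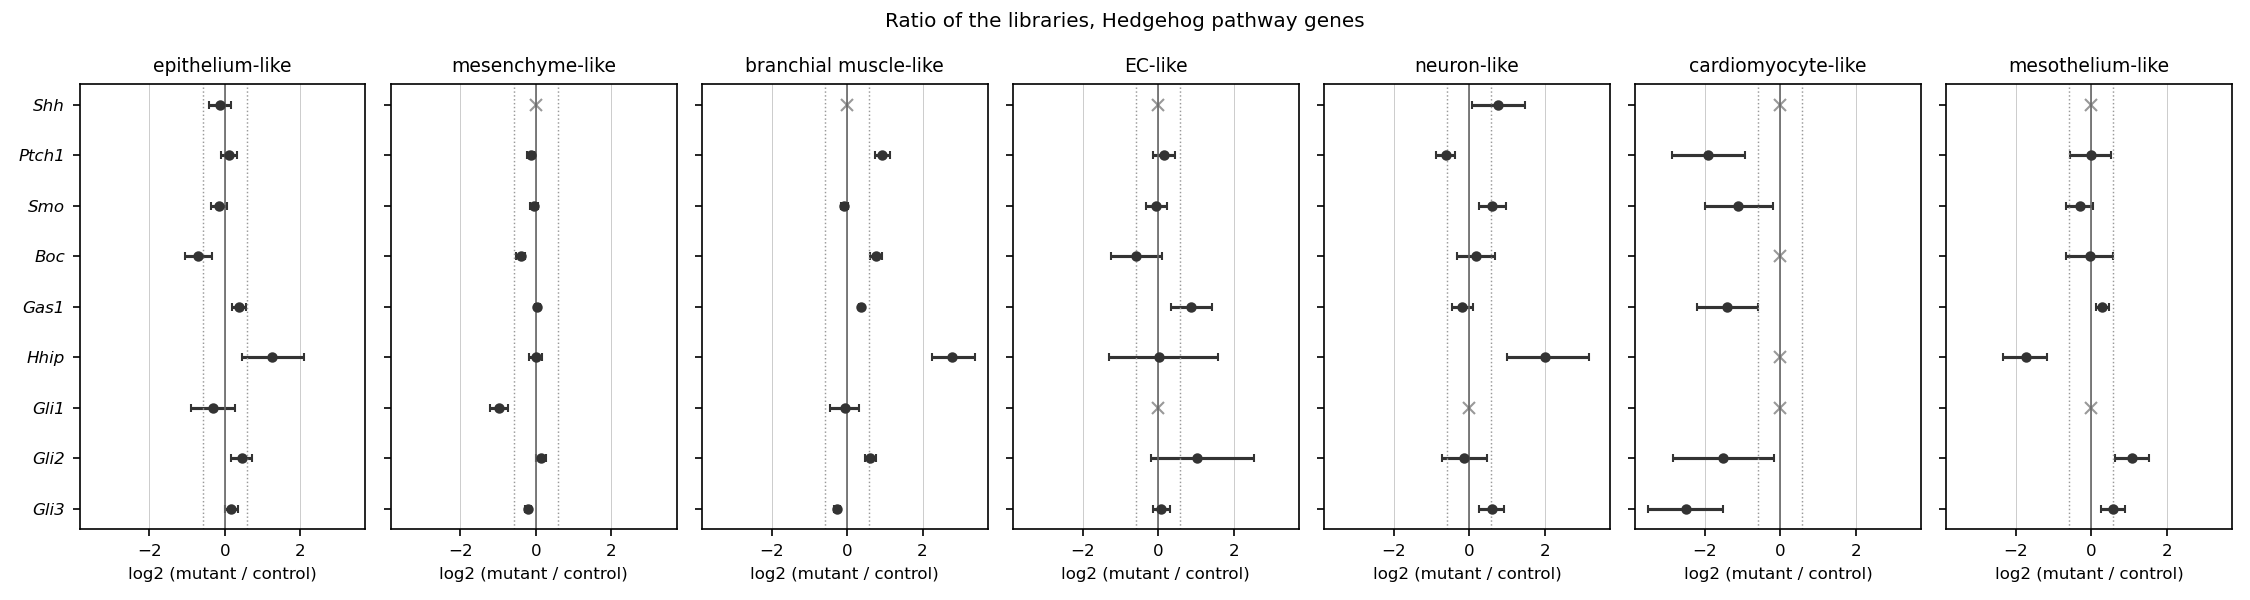
Log2 ratio of mutant over control for the 9 genes in the 7 classes compared, with 95% counting intervals, where dotted lines mark 1.5-fold and a cross at 0 marks a gene with fewer than 20 UMIs and no ratio. In mesenchyme-like cells Gli1 lay at -0.97, and in branchial muscle-like cells Hhip at 2.79, Ptch1 at 0.94, Boc at 0.76 and Gli2 at 0.62, while all 5 ratios in cardiomyocyte-like cells lay below 0.

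Neuron-like cells were a further source of Shh. Shh was at 6.07 CPM in control (24 UMIs, 192 cells) against 10.2 CPM in mutant (80 UMIs, 470 cells), with a log2 ratio of 0.75 (0.08 to 1.48). Female-like neuron-like cells alone had 6.15 and 16.6 CPM (1.44, 0.75 to 2.17). Male-like mutant cells had 4.38 CPM, below the control level. They had no control of their sex, since 0.0359% of the control library was male-like. Most of the Shh came from the fine cluster led by Igfbpl1 and Dcc, at 10.7 CPM in control and 16.4 CPM in mutant (0.62, -0.15 to 1.48). Ptch1 in neuron-like cells was at 59.7 and 38.7 CPM (-0.63, -0.88 to -0.38), and Hhip at 2.28 CPM (9 UMIs) and 9.09 CPM (71 UMIs; 2.00, 0.99 to 3.18). Smo was at 22.5 and 34.4 CPM and Gli3 at 25.6 and 38.5 CPM. Mesenchyme markers in these cells summed to 575 and 70.0 CPM, with 0 of 13 higher in mutant, and the part of this in the neuron-like values was not tested.

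Cardiomyocyte-like cells, with 54 control and 184 mutant cells, had few UMIs of any of the 9 genes. Gli3 was at 27.7 CPM in control (24 UMIs) against 4.92 CPM in mutant (16 UMIs), and Gas1 at 27.7 CPM (24 UMIs) and 10.5 CPM (34 UMIs). Ptch1 had 20 UMIs in each library, 23.1 and 6.15 CPM. Few control cells carried these sums. All 20 control UMIs of Ptch1 lay in 1 of 54 cells (1.85%), whereas those of the mutant lay in 12 of 184 cells (6.52%), so the share of cells with Ptch1 ran the other way. The control UMIs of Gli3 lay in 3 cells, those of Gli2 in 5 and the 8 of Hhip in 1, while those of Smo lay in 13 cells and those of Gas1 in 17. Mesenchyme markers moved the same way in these cells, summing to 275 CPM in control and 76.6 CPM in mutant, with 1 of 13 higher, and their part in the values was not tested.

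The wider pathway was followed with lists of ligand and release genes (8), reception genes (8), cytoplasmic regulators (15), Gli factors (3), target genes known in mesenchyme (15) and genes of the primary cilium (20). Some of these lists hold members of the 9. In mesenchyme-like cells the target gene list had 7 of 15 tested genes higher and 2 lower, beside 11.3% and 8.28% of all genes tested, with a median log2 ratio of 0.20 beside 0.01 over all genes tested. The mesenchyme, fibroblast and smooth muscle marker sums of this class, given with Gli1, also differed. So did its lung mesenchyme markers, at 715 and 232 CPM, and the lung-led cluster held 370 of 991 control and 136 of 682 mutant cells. The part of these shifts in the list was not tested, and the list genes are given as class sums only. The forkhead factor genes Foxc1 (9.39 and 30.9 CPM, log2 ratio 1.72), Foxc2 (9.84 and 31.9 CPM, 1.69), Foxd1 (19.4 and 49.1 CPM, 1.34) and Foxd2 (2.22 and 8.42 CPM, 1.92) were higher in mutant. So were Bmp4, a growth factor gene, at 49.3 and 82.0 CPM (0.73), Mycn at 8.58 and 15.5 CPM (0.86) and Nkx3-2 at 1.41 and 3.42 CPM (1.28). Lower were Osr2, at 28.9 and 15.8 CPM (-0.87), and Bcl2, a survival gene, at 68.7 and 45.6 CPM (-0.59). As sums over the class, these 7 target genes and Gli1 thus differed in opposite directions.

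Among the other lists in mesenchyme-like cells, few genes passed. Scube1, of a family of secreted proteins that includes the ligand-release factor Scube2, was higher at 20.7 and 54.7 CPM (log2 ratio 1.40), and Scube2 was lower at 6.36 and 3.07 CPM (-1.05). Evc2, which acts on Smoothened at the cilium base, was lower at 27.1 and 16.5 CPM (-0.71) and was the single cytoplasmic regulator of 15 that passed. Of 20 cilium genes 0 were higher and 0 were lower, with a median log2 ratio of 0.03.

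In epithelium-like cells 9 of the 15 target genes could be tested, and 2 were higher and 4 lower, beside 8.34% and 9.52% of all genes tested. The median log2 ratio of these 9 was 0.49 beside -0.05 over all genes, the other way from the larger number of lower genes. Bcl2 (62.3 and 22.3 CPM, log2 ratio -1.48), Mycn (50.9 and 22.5 CPM, -1.18), Ccnd1, a cyclin gene (278 and 141 CPM, -0.98), and Bmp4 (42.4 and 27.1 CPM, -0.65) were lower in mutant. Ccnd2, a second cyclin gene, was higher at 347 and 538 CPM (0.63), and Foxd1 was higher from 2 to 19 UMIs (2.82). Of the other lists Lrp2, an endocytic receptor that binds Shh, was higher at 11 and 21.8 CPM (0.99) and Scube3 at 13.6 and 32.1 CPM (1.24), whereas Scube1 was lower at 9.25 and 4.18 CPM (-1.15). The kinase gene Ulk3 was higher at 6.33 and 10.7 CPM (0.76) and the cilium gene Arl13b at 29.0 and 43.8 CPM (0.60), the only 1 of 20 cilium genes that passed. Bmp4 and Mycn were thus lower in mutant epithelium and higher in mutant mesenchyme, and the difference between the classes was not tested.

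In branchial muscle-like cells 6 of 13 tested target genes were higher and 1 lower, beside 14.1% and 7.94% of all genes tested, with a median log2 ratio of 0.56 beside 0.02. These 6 were Foxc1, Foxc2, Foxd2, Foxf2, Osr1 and Ccnd1, and all but Ccnd1 (51.1 and 90.5 CPM) were below 6 CPM in both libraries. Foxf1 was lower, at 1.24 and 0.566 CPM. The cilium list again had 0 of 20 genes higher and 0 lower in muscle. In EC-like cells 0 of 20 were higher and 4 lower, beside 9.67% and 11.6% of all genes tested. The median there was -0.31 beside -0.07 over all genes.

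**Figure D5:**
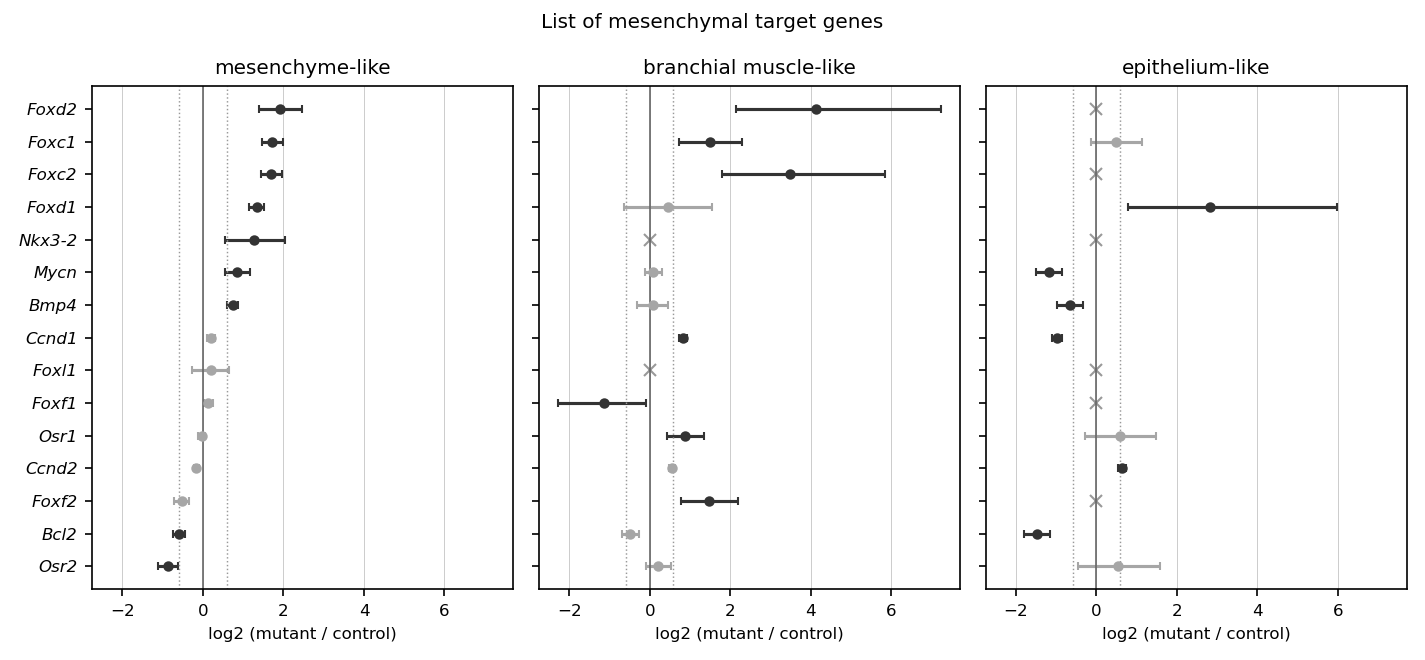
Log2 ratio of mutant over control for the 15 genes of the mesenchymal target list in 3 classes, with 95% counting intervals, black where the gene passed the rule of 1.5-fold (dotted lines) and grey where it did not, with a cross at 0 for fewer than 20 UMIs. Foxc1, Foxc2, Foxd1 and Foxd2 lay between 1.34 and 1.92 in mesenchyme-like cells, and Bmp4 and Mycn lay on opposite sides of 0 in mesenchyme-like and epithelium-like cells.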

How the data were processed

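Single-cell RNA sequencing was performed on 1 library per genotype, each of 3 pooled embryos at E13.5. The authors aligned reads to the mouse genome (mm10, that is GRCm38) with Cell Ranger 7.1.0, per the submitters' processing notes, and deposited raw UMI counts of 32285 genes for 4505 control and 5357 mutant cells (66935720 and 73915525 UMIs). The annotation release and the counting of intronic reads are not given in the sources used here. Cells were kept if they had over 2000 but under 9000 genes, with mitochondrial UMIs below 10%.

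Libraries were integrated by canonical correlation with Seurat 5.3.0 (R 4.3.3) on 2000 variable genes that left out 69 pathway genes. With 30 components and 20 neighbours, resolution 0.3 gave 15 clusters, named where at least 3 markers were raised, and resolution 0.8 gave 25 fine clusters. Cluster 6, which mixed blood and macrophage genes, and classes with under 50 cells in a library were not compared. Doublets were kept in the values of the report, since Scrublet's own threshold (scanpy 1.11.5) marked almost no cell.

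UMI counts of each class were summed within a library and scaled to the sum of all its UMIs. With 1 library per genotype no p-value was computed. For CPM the 95% intervals are exact Poisson. Ratios have conditional binomial intervals (exact), shares have Clopper-Pearson ones, and a count of 0 allows up to 3 counts. The ratios were tested on simulated data. Named genes are the 9 members in every class compared, genes of the wider lists that passed the rule in mesenchyme-like or epithelium-like cells, and the 8 genes most like Shh and Gli1 among genes reaching 20 CPM. A result that this rule covers is not reported here. Passing list genes in muscle-like cells and cluster-leading genes were named after their values were seen. The members and lists were chosen with earlier results of these data known.

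The alternatives were other class assignments (no integration, resolution 0.8, marker counts), equal cluster weights, leaving out lung-led clusters, other cell filters, removal of doublets, scaling by the edgeR 4.0.16 TMM factor, by the median ratio or per cell, thinning to 5000 UMIs, cells of 1 sex, G1 cells, and other limits of the rule. Sub-clusters of epithelium and leaving out shared barcodes, cardiac gene-led or smooth muscle-led cells were added after seeing the data. Female-like cells had an Xist UMI and none of 4 Y-linked genes (Ddx3y, Uty, Kdm5d, Eif2s3y). Coordinates are from GENCODE and promoter windows from RefSeq. Intervals were computed with scipy 1.17.1 in Python 3.11.15, and figures drawn with matplotlib 3.10.9.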

Additional observations from a re-analysis of the deposited data

Results flagged for a closer look

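Some of the 9 genes had counting intervals on opposite sides of 0 in different classes, and none of these differences between classes was tested. The log2 ratios of mutant over control differed by 4.52 for Hhip between branchial muscle-like (2.79) and mesothelium-like cells (-1.73), and by 1.46 for Boc between branchial muscle-like (0.76) and epithelium-like cells (-0.70).

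Other pairs involved cardiomyocyte-like cells, which held 54 control cells and few UMIs of these genes. Their ratios lay 2.85 below branchial muscle-like cells for Ptch1, 1.74 below neuron-like cells for Smo, 2.60 below mesothelium-like cells for Gli2, 3.09 below neuron-like cells for Gli3 and 2.27 below EC-like cells for Gas1.

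Within a class, the ratio of Ptch1 differed by 1.53 between the mesenchyme-like cluster led by Twist1 and cartilage genes (0.79) and the lung-led cluster (-0.74). It differed by 3.95 between the epithelial sub-clusters led by Cga (1.60) and by Oc90 (-2.35). In the Oc90-led one the mutant library had 5 Ptch1 UMIs in 15 cells. These differences were not tested either.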

How the results depend on the processing

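No paired analysis was possible because each genotype had 1 library. Of 289 log2 ratios recomputed in epithelium-like and mesenchyme-like cells, 240 stayed within the counting interval of the reported value and 48 left it. The remaining 1, Hhip in epithelium, had passed the rule and changed sign (-0.086 with an interval across 0 in female-like cells, instead of 1.24). Ratios that had not passed the rule, such as those of Ptch1 in mesenchyme and Shh in epithelium, also changed sign under some alternatives and are among the 48 or the 240.

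The Gli1 ratio in mesenchyme-like cells stayed below 0 under all 17 alternatives, from -1.38 to -0.61. It moved to -0.61 without lung-led clusters, to -0.64 with equal cluster weights and to -1.38 in female-like cells. Ptch1 in mesenchyme was 0.0056 with classes from marker counts, 0.24 without lung-led clusters, 0.14 with equal weights, 0.036 in thinned cells and 0.34 in G1 cells. Hhip in mesenchyme was -0.28 as a mean over cells, -0.18 in thinned cells, -1.01 in female-like cells, 0.30 for male-like mutant cells against control, 0.44 in G1 cells and, added after seeing the data, -0.40 without smooth muscle-led clusters. Shh in epithelium was 0.26 with equal cluster weights, 1.19 with equal sub-cluster weights (added after seeing the data), -0.64 in thinned cells, -0.58 in female-like cells and 0.39 in G1 cells.

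Of the 9 genes, 2 passed the rule in epithelium, Hhip and Boc, and in female-like cells Gas1 and Boc passed. The count was 1 with marker-count classes, with mitochondrial UMIs under 5%, in G1 cells or with at least 100 UMIs, 0 when the interval had to lie wholly beyond 1.5-fold, and 3 in thinned cells or, added after seeing the data, without the sub-cluster led by cardiac genes. In mesenchyme it was 1, and 2 in female-like cells. Shares of all genes passing under these alternatives are not given here, so the counts were not set against a background. Scaling by TMM or median ratio shifted all ratios by at most 0.07. Differences between embryos and libraries cannot be told apart from genotype at any depth. Comparing the female-like cells of both libraries holds sex equal, but not the embryos, the library or the makeup of the cells.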
